A study of Mus musculus with 6 samples.

Results

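The early growth response (EGR) genes and the Krüppel-like factor (KLF) genes encode zinc finger transcription factors that bind GC-rich DNA. EGR genes are immediate-early genes: growth factors and stress switch them on within minutes, in large part through serum response factor and its ETS partners at CArG boxes, and the NAB proteins act as their corepressors. KLF proteins bind CACCC and GC boxes with zinc fingers like those of the SP proteins, and differ in the cofactors they recruit. In liver, KLF15 is known for control of amino acid breakdown and gluconeogenesis, KLF9 for its induction by glucocorticoid and thyroid hormone, and KLF10 and KLF11 for their early induction by TGF-beta. The 10 genes described here are Egr1, Egr2, Egr3, Klf2, Klf4, Klf5, Klf6, Klf9, Klf10 and Klf15, taken by gene symbol from a deposited table of read counts for 54532 genes. Each symbol stood for 1 gene of the table.

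Counts came from total RNA of AML12 cells, a mouse hepatocyte line grown in culture and given as wild type by the submitters. The 3 PP libraries were from cells given PP at 250 µg/ml for 24 h. The 3 PA/OA libraries were from cells given the modelling reagent PA/OA for 24 h, stated by the submitters as 400 nM PA and 800 nM OA. The study's title names Camellia oleifera meal peptides. The labels give PP as the sole treatment of the first group, and the study's design text can also be read as PP given together with PA/OA. A blank group named in the design text is not analysed here, so each difference is PP against PA/OA and neither group can be set against untreated cells. Whether each library had its own culture is not stated, so the p-values below speak only for variation among these 6 libraries, part or all of which may be technical.

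Library totals were 27418502, 32560589 and 31832239 counts for PP replicates 1 to 3, against 26825673, 26040579 and 24113169 for PA/OA replicates 1 to 3. Of the hepatocyte markers, Krt8 and Krt18 were abundant in every library, while Alb averaged 9.90 CPM (read counts scaled to a common library size) in PP and 12.2 CPM in PA/OA, and Cps1 and Cyp2e1 were at or near 0 in both groups. Hnf4a, a hepatocyte transcription factor, averaged 26.8 CPM in PP and 71.7 CPM in PA/OA, and Apob averaged 75.8 CPM in PP and 245.5 CPM in PA/OA. Ttr averaged 0.765 CPM in PP and 1.45 CPM in PA/OA, Trf 3.31 and 2.33 CPM, and Apoa1 2.73 and 2.04 CPM. The 10 hepatocyte markers summed to 3724 to 4074 CPM in PP and 3010 to 3223 CPM in PA/OA, most of it from Krt8 and Krt18. The summed level of 7 endothelial markers was 0.691 to 1.158 CPM in PP and 0.393 to 0.832 CPM in PA/OA, with Emcn at 0 throughout. Summed macrophage markers were 54.3 to 57.7 CPM in PP and 54.9 to 64.9 CPM in PA/OA, with Adgre1 at 0, but within that sum Cd68 averaged 27.3 CPM in PP and 2.78 CPM in PA/OA, and Cd14 averaged 27.7 CPM in PP and 55.7 CPM in PA/OA. Summed stellate cell and fibroblast markers were 2.03 to 5.53 CPM in PP and 4.13 to 5.39 CPM in PA/OA, with Lum at 0. The 5 cholangiocyte markers summed to 4053 to 4496 CPM in PP and 2429 to 2554 CPM in PA/OA, most of it from keratin genes, with Epcam at 0. The part of these marker differences in the results below was not tested. Because CPM are shares of a library, less RNA of a gene per cell and fewer cells that express it cannot be told apart, and neither can a change in total RNA per cell be seen.

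Of the 10 genes, 9 passed the filter on low counts, and Klf2 did not. Klf10, Klf5, Klf4, Klf6 and Klf9 were higher in PP, Klf15 and Egr3 were lower, and Egr1 and Egr2 did not pass the test (edgeR quasi-likelihood test, threshold of 0.05 on p adjusted over 15718 genes). The comparison called most of the table: 35.1% of the genes tested were higher in PP and 39.9% were lower. With a change of at least 2-fold also required, Klf10 was higher in PP, where 12.1% of all genes tested were, and Klf15 and Egr3 were lower, where 24.5% were. The PP and PA/OA libraries did not overlap in CPM for 7 of the 9 genes, a share near the 77.4% found over all genes tested. A count of calls is therefore no mark of these genes.

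**Figure D1:**
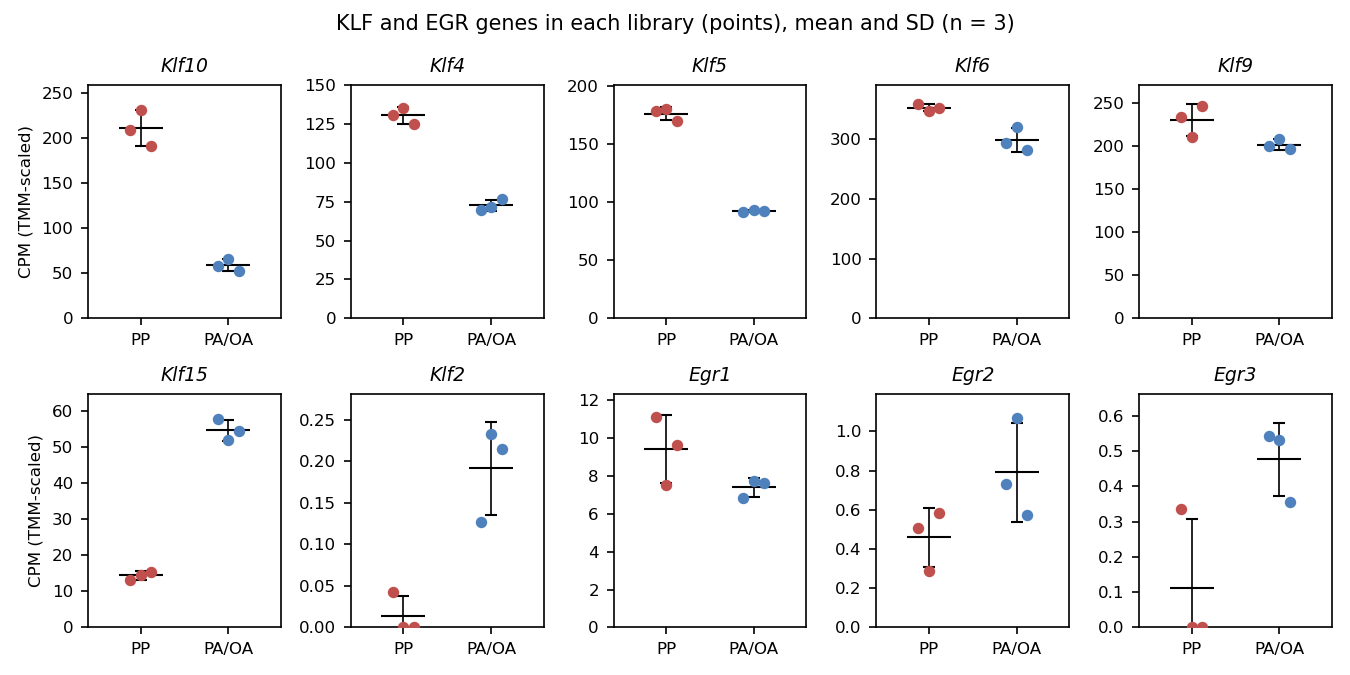
TMM-scaled CPM (vertical axes, each starting at 0) of the 10 genes, with 1 panel a gene, in the 3 PP libraries (left in each panel) and the 3 PA/OA libraries (right), with lines at the group mean and SD. The groups lie far apart for Klf10, Klf15, Klf4 and Klf5, close together for Klf6 and Klf9, and overlap for Egr1 and Egr2.

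Klf10, first described as a TGF-beta-inducible early gene, rose more than any other KLF or EGR gene among the 10. Klf10 (ENSMUSG00000037465, minus strand, mm10 chr15:38291463-38300706) had 209.7, 231.5 and 191.7 CPM in the PP libraries, against 58.3, 66.4 and 52.7 CPM in the PA/OA libraries. The lowest PP library stood far above the highest PA/OA library. Klf10 averaged 211 ± 19.9 CPM in PP and 59.1 ± 6.92 CPM in PA/OA (SD, n = 3 each), a log2 fold change of 1.83 ± 0.08 (SE), or 3.57-fold (edgeR adjusted p = 4.17e-15). That fold change lay at the 97.4th percentile of all genes tested. Under the 17 alternative settings tried, which include other scalings and leaving out each library, it stayed between 1.40 and 1.93.

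Klf15, the KLF tied to fasting metabolism in liver, moved the other way with much the same size. Klf15 (ENSMUSG00000030087, plus strand, mm10 chr6:90462576-90475238) had 13.2, 14.6 and 15.4 CPM in the PP libraries, against 57.9, 52.1 and 54.4 CPM in the PA/OA libraries. All 3 PP libraries were low and the groups were far apart. Klf15 averaged 14.4 ± 1.12 CPM in PP and 54.8 ± 2.92 CPM in PA/OA (SD, n = 3 each), a log2 fold change of −1.92 ± 0.09, which leaves 26.3% of the PA/OA level (edgeR adjusted p = 1.23e-14). Its range over the 17 alternatives was −2.36 to −1.84. Among all genes tested the fold change lay at the 13.6th percentile, so falls of this size were common in this comparison.

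The Klf15 promoter is shown because it holds a pair of E-boxes (CACGTG, capitals), the letters bound by clock and MYC family proteins. The 250 bases before its start (RefSeq, GRCm38.p6, chr6:90462326-90462575, plus strand) place them 228 and 172 bases before the start.
Klf15 promoter: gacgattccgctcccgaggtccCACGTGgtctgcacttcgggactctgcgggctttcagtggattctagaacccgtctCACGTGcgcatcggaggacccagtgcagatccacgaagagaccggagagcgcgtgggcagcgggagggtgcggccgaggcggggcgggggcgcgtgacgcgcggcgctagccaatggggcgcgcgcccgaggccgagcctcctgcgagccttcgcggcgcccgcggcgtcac
The E-box was present at least once in 6.02% of 32851 promoter windows of the same length, and 2 or more times in 0.429%. A match of letters is no measure of binding.

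Klf4 and Klf5 rose together and by nearly the same factor. Klf4 drives terminal differentiation of epithelia and is a reprogramming factor, and Klf5 is known from proliferating epithelia and from adipocyte differentiation. Klf4 (ENSMUSG00000003032, minus strand, mm10 chr4:55527143-55532466) had 130.9, 135.3 and 124.5 CPM in the PP libraries, against 69.5, 71.5 and 76.5 CPM in the PA/OA libraries. The groups did not overlap, and Klf4 averaged 130.2 ± 5.43 CPM in PP and 72.5 ± 3.62 CPM in PA/OA (SD, n = 3 each). Its log2 fold change was 0.85 ± 0.06, or 1.80-fold (edgeR adjusted p = 2.99e-11).

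Klf5 (ENSMUSG00000005148, plus strand, mm10 chr14:99298691-99315036) had 178.5, 180.02 and 169.5 CPM in the PP libraries, against 91.6, 93.3 and 92.3 CPM in the PA/OA libraries. The PA/OA libraries lay within a very narrow band, well below every PP library. Klf5 averaged 176 ± 5.70 CPM in PP and 92.4 ± 0.839 CPM in PA/OA (SD, n = 3 each), a log2 fold change of 0.93 ± 0.05, or 1.90-fold (edgeR adjusted p = 1.02e-12). Both genes were called under each of the 17 alternatives. The log2 fold change ranged from 0.41 to 0.90 for Klf4 and from 0.49 to 0.98 for Klf5, with the low ends from scaling by library size only.

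The Klf4 promoter is shown as an example of the same letters in a gene that was higher in PP: its E-box (capitals) lies 182 bases before the start. Klf6 and 1 window of Egr2 held an E-box as well, so 4 of the 10 windows of the 6 genes matched had one, against 6.02% of all windows. These windows are few, some of those of Egr2 overlap, and a share per gene was not computed. The window covers the 250 bases before the start (RefSeq, GRCm38.p6, chr4:55532476-55532725, minus strand).
Klf4 promoter: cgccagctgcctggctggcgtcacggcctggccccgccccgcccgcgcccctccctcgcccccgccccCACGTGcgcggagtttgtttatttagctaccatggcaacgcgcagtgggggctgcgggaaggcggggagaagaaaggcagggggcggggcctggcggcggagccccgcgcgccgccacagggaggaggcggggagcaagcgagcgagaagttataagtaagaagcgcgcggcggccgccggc
The Klf4, Klf15 and Klf2 windows each held 1 copy of GCGGGGGCG, an EGR-type letter string found on either strand in 2.57% of all windows. The other EGR string searched, GCGTGGGCG, was in none of the matched windows and in 0.536% of all windows. CACCC was in the windows of Klf15, Klf2 and Klf9 and in some of Egr2, but not in Klf4 or Klf6, and in 52% of all windows. The GC box GGGCGG, the letters of SP1 and many KLF proteins, occurred 4 times in Klf4, 2 times in Klf2 and 1 time in Klf15 and in Klf6, but not in Klf9. It occurred 4 times in 1 Egr2 window, 1 time in another and in none of the other 3, and was present in 32.7% of all windows. Its count and that of GCGGGGGCG can share bases. Promoters of 6 of the 10 genes were matched in the RefSeq table.

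Klf6 and Klf9 had the highest levels of the 10 genes per kb of gene length, and their small rises depended on the scaling. Klf6, a broadly expressed KLF reported as a tumour suppressor, is ENSMUSG00000000078 (plus strand, mm10 chr13:5861482-5870394). It had 358.2, 347.2 and 351.2 CPM in the PP libraries, against 292.9, 320.4 and 280.9 CPM in the PA/OA libraries. The groups did not overlap, and the means were 352.2 ± 5.54 CPM in PP and 298.1 ± 20.2 CPM in PA/OA (SD, n = 3 each), a log2 fold change of 0.24 ± 0.06 (edgeR adjusted p = 0.000521). With library size only it was lower in PP at −0.19, and with the trend of fold change against abundance removed it was lower at −0.29.

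Klf9, a glucocorticoid- and thyroid hormone-responsive KLF, is ENSMUSG00000033863 (plus strand, mm10 chr19:23141226-23166911). It had 233.8, 210.1 and 246.3 CPM in the PP libraries, against 200.4, 208.2 and 195.95 CPM in the PA/OA libraries. The lowest PP library was only just above the highest PA/OA library. Klf9 averaged 230.1 ± 18.4 CPM in PP and 201.5 ± 6.21 CPM in PA/OA (SD, n = 3 each), a log2 fold change of 0.19 ± 0.06 (edgeR adjusted p = 0.00610). It was lower in PP with library size only, at −0.24, and with the abundance trend removed, at −0.28, so no direction held for Klf6 or Klf9 over the scalings. Mir1192 lies within Klf9 in the table, and counts of overlapping genes may have been split.

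Klf2, the KLF of endothelial cells under shear stress, was near 0 in these cells. Klf2 (ENSMUSG00000055148, plus strand, mm10 chr8:72319033-72321656) had 1, 0 and 0 counts in the PP libraries, against 4, 7 and 6 counts in the PA/OA libraries. The summed counts of 1 in PP and 17 in PA/OA give a PP over PA/OA ratio of 0.0493 per library total, with an exact 95% interval of 0.00118 to 0.315 that covers counting error only. With no filter on low counts the gene did not pass the test (edgeR adjusted p = 0.0608). Its cell type's markers, Cdh5 and Pecam1 among them, were also near 0.

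Of the EGR genes, Egr1 was the only one with more than 32 counts in any library, and none of the 3 had a stable call. Egr1, the most widely studied of these immediate-early factors, is ENSMUSG00000038418 (plus strand, mm10 chr18:34859823-34864984). It had 11.1, 7.53 and 9.64 CPM in the PP libraries, against 6.82, 7.76 and 7.61 CPM in the PA/OA libraries. PP replicate 2 lay below 2 of the PA/OA libraries, so the groups overlapped. The means were 9.43 ± 1.80 CPM in PP and 7.40 ± 0.503 CPM in PA/OA (SD, n = 3 each), with a log2 fold change of 0.35 ± 0.16 (edgeR adjusted p = 0.0512). Without PP replicate 2 it was 0.51, and the adjusted p was 0.00634.

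Egr2, known from hindbrain patterning and myelination, is ENSMUSG00000037868 (plus strand, mm10 chr10:67535475-67542188). It had 12, 8 and 16 counts in the PP libraries, against 23, 32 and 16 counts in the PA/OA libraries. The highest PP library and the lowest PA/OA library had the same count, and the log2 fold change of −0.78 ± 0.48 did not pass the test (edgeR adjusted p = 0.146). With library size only it was −1.21, with an adjusted p of 0.0270. Egr2 means were 0.459 ± 0.152 CPM in PP and 0.790 ± 0.252 CPM in PA/OA (SD, n = 3 each).

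Egr3, a relative studied in lymphocytes and muscle spindles, is ENSMUSG00000033730 (plus strand, mm10 chr14:70077203-70082614). It had 8, 0 and 0 counts in the PP libraries, against 17, 16 and 10 counts in the PA/OA libraries. The groups did not overlap, but all PP counts came from PP replicate 1, and the gene passed the filter through the PA/OA libraries, where it was higher. Its log2 fold change was −2.16 ± 0.84 (edgeR adjusted p = 0.0241), and the ratio of summed counts per library total was 0.156, with an exact 95% interval of 0.0633 to 0.336. The call was lost on leaving out PP replicate 2 (adjusted p = 0.127), PP replicate 3 (0.117), PA/OA replicate 1 (0.0777) or PA/OA replicate 2 (0.0699). Without PP replicate 1 every remaining PP library was at 0, and the fitted value of −6.79 is then no measure of size.

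The CArG box, the site of serum response factor, was found in the Egr2 promoters, which hold 5 start sites in the RefSeq table, of which 3 have windows that overlap each other. There were 2 separate boxes, 1 shared by the 3 overlapping windows and 1 in another window, while 1.47% of all windows held at least 1. The stretch that carries the shared box is shown because this is the element through which EGR genes are known to be switched on (RefSeq, GRCm38.p6, chr10:67537769-67537868, plus strand, CArG box in capitals, 72 bases before the start).
Egr2 promoter stretch: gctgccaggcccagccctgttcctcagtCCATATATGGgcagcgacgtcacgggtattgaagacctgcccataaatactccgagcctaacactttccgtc
The CRE letters TGACGTCA and the AP-1 letters TGACTCA were in none of the matched windows of the 10 genes, and were present in 1.55% and 4.46% of all windows.

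The order of levels within the families differed between the groups. On the scale of CPM per kb of the deposited gene length, PP cells ran Klf6 (80.2 ± 1.26), Klf9 (70.5 ± 5.64), Klf10 (50.5 ± 4.76), Klf4 (42.7 ± 1.78) and Klf5 (33.8 ± 1.10), followed after a gap by Klf15 (5.16 ± 0.401) and Egr1 (2.10 ± 0.401). In PA/OA cells the order was Klf6 (67.9 ± 4.61), Klf9 (61.8 ± 1.90), Klf4 (23.8 ± 1.19), Klf15 (19.6 ± 1.04), Klf5 (17.8 ± 0.161), Klf10 (14.2 ± 1.66) and Egr1 (1.65 ± 0.112), each with its SD over 3 libraries. Klf10 was thus the third of these genes in PP and the sixth in PA/OA, and Klf15 was the sixth in PP and the fourth in PA/OA. Egr2, Egr3 and Klf2 stood last in both groups, at 0.135, 0.0255 and 0.00759 CPM per kb in PP and 0.233, 0.108 and 0.104 CPM per kb in PA/OA. Of the neighbours in these orders, Egr3 and Klf2 overlapped in their libraries in both groups, and no others did.

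**Figure D2:**
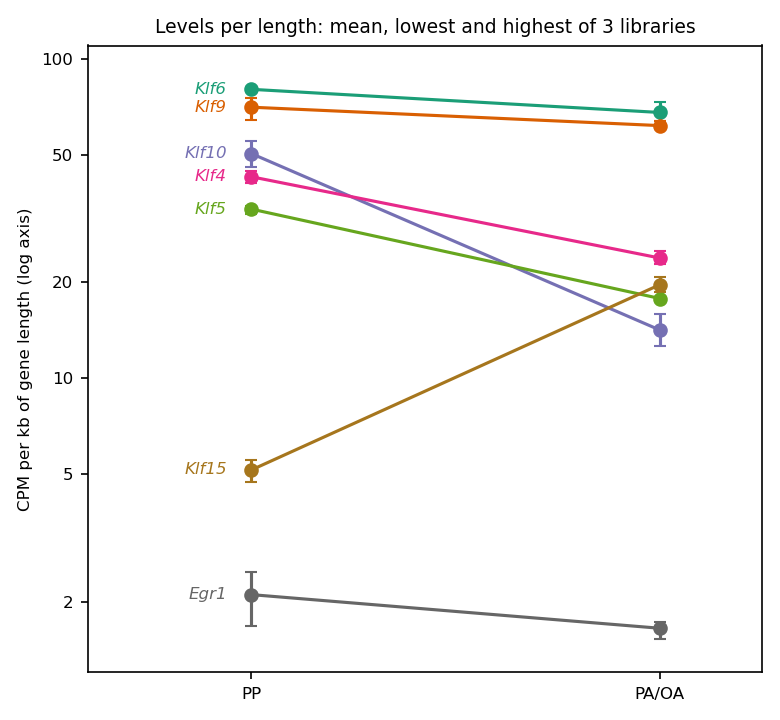
Levels of 7 genes in CPM per kb of deposited gene length (vertical log axis) in PP (left) and PA/OA (right); points are means of 3 libraries and bars run from the lowest to the highest library. The lines of Klf10 and Klf15 cross: Klf10 lies above Klf15 in PP and below it in PA/OA.

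The KLF family's total also differed under TMM scaling. Over the 17 Klf genes of the table, summed CPM per kb was 372 ± 3.46 in PP and 267 ± 7.18 in PA/OA (SD, n = 3 each). Klf10 made up 13.6% of that sum in PP and 5.30% in PA/OA, and Klf11, its closest relative, 7.06% in PP and 1.90% in PA/OA. Klf15 made up 1.39% in PP and 7.37% in PA/OA. Klf6 and Klf9 remained the leading shares, at 21.6% and 19.0% in PP and 25.4% and 23.2% in PA/OA. The sum over EGR genes was 2.30 ± 0.482 CPM per kb in PP and 1.99 ± 0.157 in PA/OA. Both sums depend on the TMM factors, which were 0.849 to 0.867 for the PP libraries and 1.15 to 1.17 for the PA/OA libraries. These factors raise PP sums and lower PA/OA sums, by about as much as the KLF totals differ and by more than the EGR totals do. With library size only, the KLF means would therefore lie close together and the order of the EGR means would be reversed. Those sums were not computed for each library. The shares within a library do not depend on the TMM factors.

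Among the other KLF and SP genes, 12 of 19 were tested, of which 8 were higher in PP, 2 were lower and 2 stayed short of the threshold. The median of the 12 was 0.51 on the log2 scale, against −0.09 over all genes tested, where 35.1% were higher and 39.9% lower. Scaling by library size only left 5 higher and made 3 lower, while over all genes tested the shares were 20.6% higher and 56.7% lower. Of the 10 genes themselves, that scaling called 3 higher (Klf4, Klf5 and Klf10) and 5 lower (Klf6, Klf9, Klf15, Egr2 and Egr3). Klf11 averaged 114 ± 5.38 CPM in PP and 22.0 ± 3.18 CPM in PA/OA (log2 fold change 2.37 ± 0.09, edgeR adjusted p = 3.23e-16), a larger rise than that of Klf10. Sp1, the broadly expressed GC box factor, averaged 481 ± 11.0 CPM in PP and 190 ± 9.95 CPM in PA/OA (log2 fold change 1.34). Sp4 had a log2 fold change of 1.53, Klf16 of 1.36 and Sp3 of 0.78, and these 5 genes were called in each scaling tried.

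Klf12 at 0.54, Klf7 at 0.49 and Sp2 at 0.40 lost their call with library size only, and Sp2 also with upper-quartile scaling. Klf3, at −0.24, was the other clear fall beside Klf15. Klf13, at −0.14, was called here but not with no filter on low counts, nor without PP replicate 1, PP replicate 2, PA/OA replicate 1 or PA/OA replicate 3. Klf1 (−0.82) and Sp8 (−0.29) did not pass, with adjusted p of 0.180 and 0.520, though Klf1 was called lower with library size only. Klf8, Klf14, Klf17, Sp5, Sp6, Sp7 and Sp9 were at or near 0 and were not tested.

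**Figure D3:**
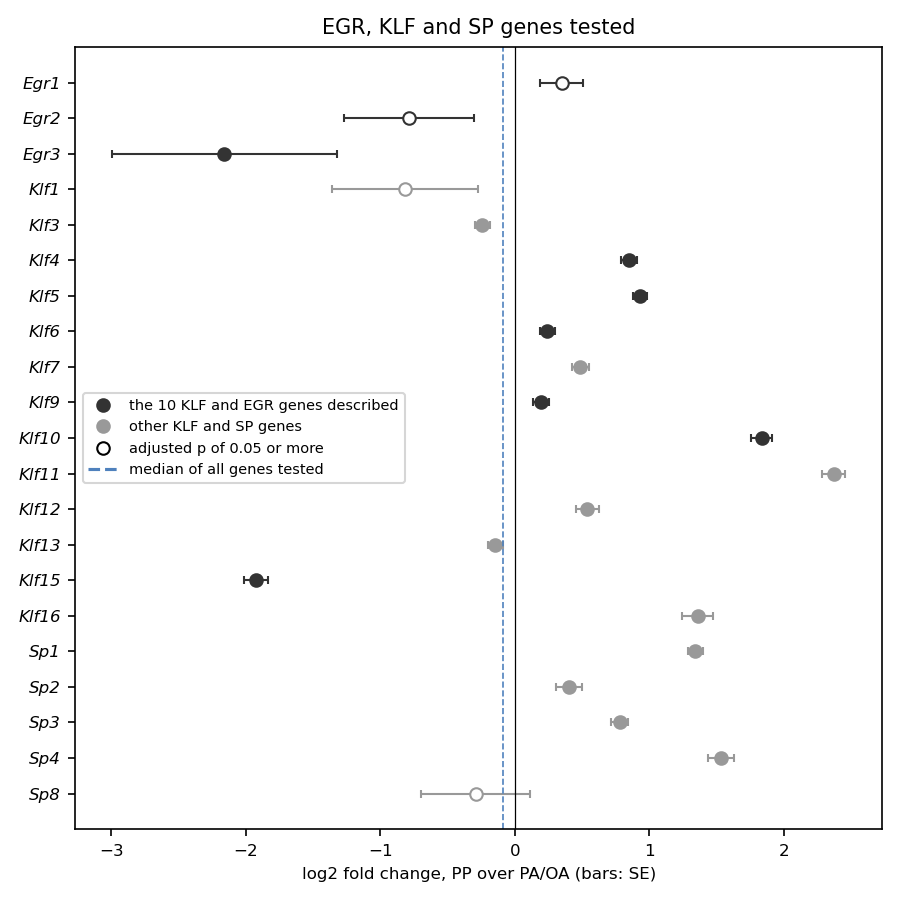
Log2 fold change of PP over PA/OA (horizontal axis; bars, SE) of every EGR, KLF and SP gene tested, with open points for an edgeR adjusted p of 0.05 or more and a dashed line at the median of all genes tested. Klf11 and Klf10 lie farthest to the right, and Egr3 and Klf15 farthest to the left.

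The lists that follow were chosen with earlier results of these data known, so their counts are descriptions. Some genes stand in more than 1 list, so the lists are not separate evidence. Dusp1 and Sgk1 are in both the immediate-early and the glucocorticoid lists, and Tgfb1 is in both the EGR1 and the TGF-beta lists. Over all genes tested, 35.1% were higher and 39.9% lower, or 20.6% and 56.7% with library size only. Upstream of the EGR genes, Srf and its coactivator gene Mkl2 were higher in PP, at log2 fold changes of 0.44 and 0.56. The ETS partners Elk1 (−0.74), Elk3 (−0.60) and Elk4 (−0.41) were lower. Of 7 genes in this list 6 were tested, 2 were higher and 3 lower, and the median was −0.21; with library size only, 4 were lower and none higher, and the calls of Srf and Mkl2 were lost. None of the 3 tested genes among Wt1, Nab1 and Nab2 passed the test or had an unadjusted p under 0.05 in edgeR (median log2 fold change −0.30), while 2 of them were lower with library size only. In the ERK5 and MEF2 cascade, which feeds Klf2 and Klf4 in endothelium, Mef2d (0.83) and Mapk7, the gene of ERK5 (0.85), were higher and Map2k5, the gene of its activating kinase, was lower (−0.91). Map3k3, at 0.24, was called lower with library size only (−0.20) and was not called with upper-quartile scaling or the removed abundance trend, and the list of 7 had 6 tested, 3 higher and 1 lower (median log2 fold change 0.14; 2 higher and 3 lower with library size only).

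Most other immediate-early genes were higher in PP. Of 28 listed, 26 were tested, 19 were higher in PP and 5 lower (median log2 fold change 0.81; 15 higher and 7 lower with library size only). Dusp1, a phosphatase gene that acts on MAP kinases, averaged 268 ± 18.5 CPM in PP and 39.5 ± 2.52 CPM in PA/OA (SD, n = 3 each). Gadd45b, a stress-induced gene, averaged 184 ± 13.5 CPM in PP and 15.8 ± 2.45 CPM in PA/OA, the RNA-decay gene Zfp36 averaged 111 ± 8.95 CPM in PP and 18.9 ± 1.56 CPM in PA/OA, and Maff averaged 420.1 ± 21.8 CPM in PP and 144 ± 2.91 CPM in PA/OA. The 5 lower genes were Ier2 (−1.81), Btg2 (−1.62), Cyr61 (−1.08), Fosl1 (−0.62) and Myc (−0.44). Fos and Fosb were picked out after their values were seen, as genes that usually accompany Egr1. Fos averaged 19.7 ± 4.34 CPM in PP and 3.50 ± 1.04 CPM in PA/OA. Fosb had 136 counts in PP and 6 in PA/OA, with a log2 fold change of 4.60. It passed the filter on low counts through the PP libraries, where it was higher, so its rise is given as a description only.

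The hormone and TGF-beta genes known to act on Klf9, Klf10, Klf11 and Klf15 were mostly higher. Of 19 genes of the glucocorticoid receptor and its known induced genes, 14 were tested, 12 were higher in PP and none lower (median log2 fold change 1.49; 9 higher and 2 lower with library size only). Per1 averaged 603 ± 38.2 CPM in PP and 77.4 ± 4.77 CPM in PA/OA, and Zbtb16 averaged 245 ± 10.7 CPM in PP and 40.3 ± 3.51 CPM in PA/OA. The metal-binding gene Mt1 had 648 ± 24.9 CPM in PP and 149 ± 4.09 CPM in PA/OA. These genes were named for their small p. Fkbp5 had a log2 fold change of 0.21, but was lower with library size only (−0.22) and with the abundance trend removed (−0.33). Hif3a (0.14) and Cebpd (0.04) did not pass the test. Tat, Pck1, G6pc, Igfbp1 and Cdkn1c were at or near 0 and were not tested. Klf15, itself reported as induced by glucocorticoid, was lower in the same libraries, and Klf9 kept no direction. Of 6 thyroid hormone genes, 4 were tested, and 3 were higher and none lower under both TMM and library size only, namely Thra (2.01), Hr (1.78) and Me1 (1.21).

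All 19 TGF-beta genes listed were tested, of which 12 were higher and 4 lower (median log2 fold change 0.41; 6 higher and 6 lower with library size only). Klf11, at a log2 fold change of 2.37, is itself in this list and adds to its count of higher genes. The inhibitory Smad7 had a log2 fold change of 1.10 and the common partner Smad4 one of 0.87. The lower genes were the receptor gene Tgfbr1 (−0.59), Id3 (−0.76), Smad3 (−0.24) and the ligand gene Tgfb3 (−2.19). Tgfb3 was not called with the abundance trend removed. With 14 counts in PP and 74 in PA/OA, it passed the filter through the PA/OA libraries, where it was higher.

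Of 10 genes of corepressors and coactivators that KLF proteins recruit, 5 were higher and 4 lower (median log2 fold change −0.01; 3 higher and 7 lower with library size only). The coactivator gene Crebbp had a log2 fold change of −1.64 ± 0.07 (edgeR adjusted p = 1.85e-15), and its relative Ep300 fell by 0.62 on that scale. Ctbp1 fell by 0.60, while Sin3a (0.66) and Hdac3 (0.62) rose. Kat2b, at −0.22, lost its call on leaving out any 1 library. Of 5 ubiquitin ligase genes reported to act on KLF proteins, Vhl (1.17) and Smurf1 (0.74) were higher and Fbxw7 (−0.69) was lower (median log2 fold change 0.07; 2 higher and 3 lower with library size only).

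Genes reported downstream of these factors did not move as single blocks. Of 13 genes reported downstream of EGR1, 11 were tested, 8 were higher and 1 lower (median log2 fold change 0.72; 5 higher and 4 lower with library size only). These included the fibronectin gene Fn1 (1.21) and Tgfb1 (1.29), and Cdk5r1 was lower (−1.55). Of 9 genes reported downstream of KLF2 and KLF4, 5 were tested, and the cell cycle inhibitor gene Cdkn1a was higher (1.75) while the endothelin gene Edn1 (−2.50) and the adhesion gene Vcam1 (−1.85) were lower (median log2 fold change −0.79; 1 higher and 4 lower with library size only).

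Of 12 amino acid breakdown and gluconeogenesis genes reported downstream of KLF15, 6 were tested, 3 rose and 3 fell (median 0.33), the same counts as with library size only. The aminotransferase gene Got1 averaged 488 ± 9.20 CPM in PP and 251 ± 4.32 CPM in PA/OA, and Gpt2, another aminotransferase gene, averaged 111 ± 8.13 CPM in PP and 181 ± 3.17 CPM in PA/OA. Ppargc1a (2.08) and the glucose transporter gene Slc2a4 (2.63) were higher. Slc2a4 had 270 counts in PP and 49 in PA/OA. It passed the filter on low counts through the PP libraries, where it was higher, so its rise is given as a description only. Prodh, for proline breakdown (−1.44), and Gpt (−0.30) were lower, and the call of Gpt was lost without PA/OA replicate 1. Tat was at 0 and Pck1 had too few counts to be tested. In the adipogenic cascade, in which several KLF genes act, 7 of 11 were tested, 4 were higher and 2 lower (median log2 fold change 0.49; 3 higher and 2 lower with library size only). Klf7 (0.49, higher) and Klf3 (−0.24, lower), already counted among the other KLF genes, are in this list as well. Cebpb (1.44), Fabp4 (2.00) and Srebf1 (0.79) were higher, and Cebpa, near the limit of counting, was lower (−3.57). Cebpa passed the filter through the PA/OA libraries, where it was higher, and was not called with the abundance trend removed.

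**Figure D4:**
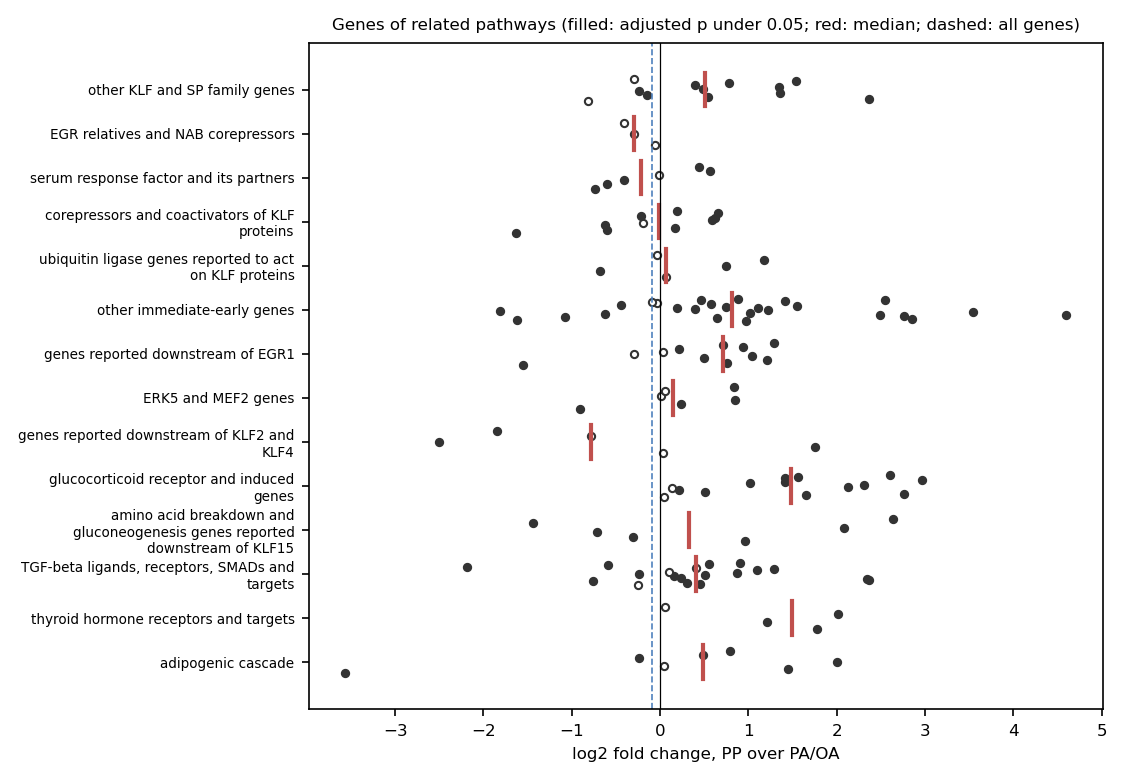
Log2 fold change of PP over PA/OA (horizontal axis) for each tested gene of the 14 gene lists (rows; 1 point a gene, open where the edgeR adjusted p was 0.05 or more), with a bar at each list's median and a dashed line at the median of all genes tested. The glucocorticoid and thyroid hormone lists have the highest medians, both at 1.49, and the genes downstream of KLF2 and KLF4 the lowest, at −0.79.

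Many of these context genes, among them Thra (with Nr1d1), Elk1 (with Uxt), Elk3 (with Cdk17), Sp3 (with Sp3os), Prodh (with Dgcr6) and Mapk7 (with Mfap4), overlap another gene of the table. Whether counting used strand is not stated, so reads of such a pair cannot be told apart and their values are uncertain. Of the 10 EGR and KLF genes described, 1 overlapped another gene.

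**Figure D5:**
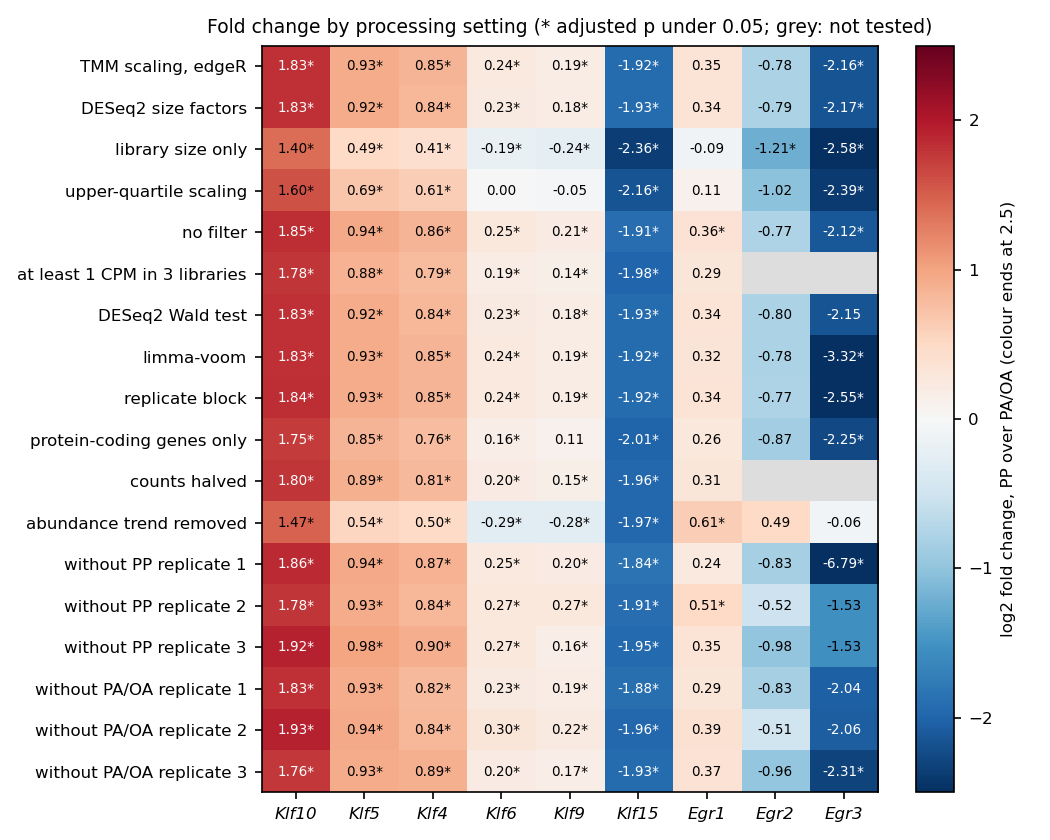
Log2 fold change of PP over PA/OA for the 9 tested genes (columns) in the comparison as made and in each of the alternatives (rows), written in each cell and coloured from lower in PP to higher in PP, with the colour scale ending before the most extreme value of −6.79. The columns of Klf4, Klf5, Klf10 and Klf15 keep their colour in every row, while those of Klf6, Klf9, Egr1 and Egr2 change sign in at least 1 row.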

How the data were processed

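The authors deposited raw read counts for each gene, made with featureCounts on build mm10 per the submitters' processing notes, which also name DESeq2 1.16.1 without its role. No source used here gives the aligner, the annotation or the strand setting. Per the labels' protocols, mRNA was taken by oligo(dT) or by rRNA removal, and which of these was used is not given.

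The test was edgeR's quasi-likelihood F-test (two-sided; edgeR 4.0.16 in R 4.3.3) over all 6 libraries, after filterByExpr had left 15718 of 54532 genes (26561 had no count) and TMM scaling. Benjamini-Hochberg adjustment ran over all genes tested. Fold changes are PP over PA/OA on the log2 scale, and CPM are TMM-scaled. The common biological coefficient of variation was 7.96%. Alternatives used limma 3.58.1, DESeq2 1.42.0, other scalings and filters, and each library left out. No 2 libraries of a group agreed within sampling noise, so none was treated as a copy of another; this does not show that they are independent cultures. Even numbers made up 57.1% to 61.5% of the counts between 1 and 20, so both mates of some pairs may have been counted, and counting intervals may be too narrow.

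Groups came from the treatment labels. All 10 genes were named, every tested KLF and SP gene, up to 4 genes with the smallest p from each other list, and genes against a list's majority. Some genes that this rule names are not reported here. The genes and the 14 lists were chosen with earlier results of these data known. Promoter motifs were searched on both strands in the 250 bases before each RefSeq start (32851 windows, 27025 symbols).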

Additional observations from a re-analysis of the deposited data

How the results depend on the processing

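Klf4, Klf5, Klf10 and Klf15 kept their direction and call in all 17 alternatives. Klf6 was −0.19 with library size only (edgeR adjusted p = 0.00295), 0.0031 with upper-quartile scaling (0.963) and −0.29 with the abundance trend removed (4.67e-05). Klf9 was −0.24 (0.00113), −0.046 (0.481) and −0.28 (0.000199) under the same settings, and 0.11 among protein-coding genes only (0.0841). Egr1 was called with no filter on low counts (0.36, adjusted p = 0.0470) and with the trend removed (0.61, 0.00164), but was −0.09 with library size only (0.635) and 0.11 with upper-quartile scaling (0.536), and ranged from 0.24 to 0.51 with 1 library left out. Egr2 was called with library size only (−1.21, 0.0270) and was 0.49 with the trend removed (0.372). Egr3 was not called by the DESeq2 Wald test (−2.15, 0.0579) or with the trend removed (−0.062, 0.953), ranged from −6.79 to −1.53 with 1 library left out, and was −3.32 by limma-voom. Egr2 and Egr3 were not tested with at least 1 CPM in 3 libraries or with counts halved, since too few counts were left. Of the 10 genes, 3 were higher with library size only and with upper-quartile scaling, against 5 as reported. Lower in PP were 5 with library size only and 1 with the CPM filter, DESeq2 or counts halved, against 2 as reported, and 1 to 2 with 1 library left out. Over all genes tested, 35.1% were higher and 39.9% lower as reported, against 20.6% and 56.7% with library size only. Upper-quartile scaling called 4241 genes higher and 7688 lower of 15718. Lower genes numbered 5375 of 13218 with the CPM filter, 6114 of 15717 with the DESeq2 Wald test and 5706 of 13915 with counts halved. Library size only shifted the median of all genes by −0.43, upper-quartile scaling by −0.24 and the removed trend by 0.15. With library size only 3235 genes were higher, and the share of calls that were higher was 26.6%, and 35.6% with upper-quartile scaling, against 46.8%. The cause of these changes was not tested beyond these shifts. Equal replicate numbers did not pair the libraries (correlations of deviations from −0.0234 to 0.00517). With the replicate number as a block, 5427 genes were higher and 6088 lower, Egr3 was −2.55 and Klf10 1.84, and no call among the 9 tested genes changed. Depth limits Egr2, Egr3 and Klf2, which rest on 107, 51 and 18 counts in all.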

Other observations

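Genes close to the 10 loci were looked at after values had been seen. Within 30 kb of them lay 22 other genes, of which 12 were tested, 4 were higher in PP and 3 lower. Gm47507, a lincRNA gene on the strand of Klf6 and 16715 bases from it, had 63, 92 and 82 counts in the PP libraries, against 16, 25 and 11 counts in the PA/OA libraries (log2 fold change 2.36 ± 0.34, edgeR adjusted p = 1.94e-06). The groups were far apart. Gm44117, a lincRNA gene on the opposite strand 1108 bases from Klf15, had 2, 6 and 5 counts in the PP libraries, against 17, 11 and 13 counts in the PA/OA libraries (log2 fold change −1.46 ± 0.61, adjusted p = 0.0349). It was low in all 3 PP libraries. Aldh1l1, a folate enzyme gene on the other side of Klf15, stood at a log2 fold change of 0.34 (adjusted p = 0.00325). Near Egr1, the histone demethylase gene Kdm3b had a log2 fold change of 0.54, and Reep2 had 2 counts in each PP library, against 21, 15 and 21 counts in the PA/OA libraries. Near Egr2, the lincRNA gene 4930563J15Rik had no count in any PP library, against 13, 26 and 22 counts in the PA/OA libraries. Gm44117, Reep2 and 4930563J15Rik passed the filter on low counts through the PA/OA libraries, where they were higher. Their lower PP counts are therefore given as a description only. The neighbouring genes were not examined under the alternative settings.

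The AU-rich letters TATTTAT, often found in short-lived mRNAs, were also searched after values had been seen, in the 3′ UTR of 1 transcript a gene (GENCODE M21). Klf10 and Klf5 held 1 copy each, as did Klf2, and Klf6 held 2, while the 3′ UTRs of the EGR genes, Klf4, Klf9 and Klf15 held none. Among 3′ UTRs of like length, 34.3% had a copy for Klf10, 37.2% for Klf5 and 18.9% for Klf2, and 23.1% had 2 or more for Klf6, so the presence of the letters does not set these genes apart.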
